A study of Mus musculus with 4 samples.

Results

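The 74 rows described here are those of a gene-level RNA-seq table whose first listed gene is a small nucleolar RNA (snoRNA, symbol beginning Snor) or a microRNA (symbol beginning Mir and a digit). They were 74 of 14226 rows, and comprised 25 Snord, 22 Snora and 27 microRNA-named rows. The table gave none of the 74 a symbol, so all were named from their Ensembl identifier in the GENCODE vM21 annotation of mouse genome build GRCm38 (mm10 in the submitters' notes). The libraries came from spleen cells of C57BL/6N mice: 2 from vcS5 animals (genotype vcS5 +/T, carrying a transgene in a series titled for an activating STAT5 mutation) and 2 from wild-type (wt) animals. The series' design text calls them biological replicates. The labels give no age, sex, promoter of the transgene or founder line beyond the prefix line1 on both vcS5 samples. RNA was total RNA from frozen cell suspensions, put through the TruSeq RNA Sample Prep kit v2 and read as 50-base single-end reads. Values are FPKM, fragments scaled to transcript length and library size, as the authors deposited them.

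snoRNAs are short nuclear RNAs, mostly cut from the introns of host genes, many of which encode ribosomal proteins or translation factors. Box C/D snoRNAs (Snord) sit with fibrillarin, Nop56 and Nop58 and guide ribose methylation of ribosomal and spliceosomal RNA. Box H/ACA snoRNAs (Snora) sit with dyskerin and guide pseudouridylation. MicroRNAs are cut by Drosha and Dicer from longer primary transcripts, and the mature strand guides Argonaute to messenger RNAs through its seed, bases 2 to 8. Neither mature form carries a poly(A) tail, and the kit used selects polyadenylated RNA and does not mark the strand. A mature microRNA is also shorter than the 50-base reads, so a row named for a microRNA reports its precursor or host transcript. In a preparation of mixed spleen cells, fewer cells of a type and less RNA per cell cannot be told apart.

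The snoRNAs that the comparison turns on are printed 5′ to 3′ as annotated in GENCODE vM21 (GRCm38), with TGATGA in the first 20 bases (the C box) and CTGA in the last 15 (the D box) in capitals. Snord49a (chr11:62603450-62603521), Snord49b (chr11:62603079-62603150) and Snord65 (chr11:62604515-62604586) lie on the plus strand within the noncoding gene 2410006H16Rik, and show how alike neighbouring members can be.
Snord49a: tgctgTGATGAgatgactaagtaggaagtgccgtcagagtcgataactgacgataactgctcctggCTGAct
Snord49b: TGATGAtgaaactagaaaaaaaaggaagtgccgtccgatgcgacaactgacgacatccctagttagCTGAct
Snord65: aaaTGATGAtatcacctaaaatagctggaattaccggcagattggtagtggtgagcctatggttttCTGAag
Snord49a and Snord49b were identical at 46 of 72 aligned positions (63.9%), and their longest shared run was 13 bases. Snord65 matched Snord49a at 49.3% and Snord49b at 54.7% of aligned positions. No 50-base read can therefore match more than 1 of the 3 without mismatches.

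The next 3 are also Snord members past the test's threshold: Snord8 (chr14:52209785-52209894, minus strand, in Chd8), Snord98 (chr10:62765576-62765640, minus strand, in Ccar1) and Snord70 (chr1:59691934-59692020, plus strand, in Nop58). Each lay in a host gene on its own strand.
Snord8: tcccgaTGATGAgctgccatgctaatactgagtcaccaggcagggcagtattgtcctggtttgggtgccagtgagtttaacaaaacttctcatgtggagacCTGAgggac
Snord98: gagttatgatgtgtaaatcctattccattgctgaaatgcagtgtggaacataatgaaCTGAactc
Snord70: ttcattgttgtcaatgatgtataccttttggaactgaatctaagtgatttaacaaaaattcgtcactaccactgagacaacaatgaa
Snord98 held the D box letters but not TGATGA in its window, and Snord70 held neither word in its windows. Across the members, 15 of 25 Snord genes (60.0%) held both words, against 53 of 74 other annotated Snord genes (71.6%). None of the 22 Snora members and none of the 20 other annotated Snora genes did. The missing words say only that these letters are not in these windows.

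Snora57 (chr19:8888538-8888685, minus strand) is printed as the Snora member past the threshold, with the ACA of its 3′ end in capitals.
Snora57: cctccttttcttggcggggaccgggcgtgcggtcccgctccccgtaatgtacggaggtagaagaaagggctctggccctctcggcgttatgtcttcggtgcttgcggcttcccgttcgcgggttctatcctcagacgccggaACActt
ACA stood in the last 6 bases of 21 of 22 Snora members (95.5%) and of 18 of 20 other annotated Snora genes. It stood there in 2 of 25 Snord members (8.0%) and in 3 of 74 other Snord genes (4.1%). A 50-base word of Snora57 also occurs in an annotated gene elsewhere in the genome, Gm26132. Among the 50 short members described below, 9 share at least 50 bases with a gene elsewhere, and they include Mir1949, Mir5098 and Snora57, whose values could hold reads of the other copy.

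For the microRNA rows past the threshold whose mature strand is in the RefSeq table (GRCm38.p6), the mature sequence is printed with the seed in capitals. The table held 24 of the 27 microRNA symbols.
miR-29c-3p: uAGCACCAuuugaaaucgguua
miR-7a-5p: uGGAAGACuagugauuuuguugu
miR-1190: uCAGCUGAgguuccccucuguc
miR-1932: gUUGCGGAcagcgcuaggucgg
miR-5098: gUUACAUGgugaagcccaguu
miR-1839-5p: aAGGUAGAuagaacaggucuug
No seed was shared among these 6. For the blood cell microRNAs described further on, some rows hold a whole cluster, so that mature strands of 1 row fall into several seed groups.
miR-15a-5p: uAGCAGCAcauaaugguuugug
miR-16-5p: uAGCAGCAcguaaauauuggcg
miR-17-5p: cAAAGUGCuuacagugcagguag
miR-20a-5p: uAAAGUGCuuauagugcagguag
miR-18a-5p: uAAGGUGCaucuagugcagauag
miR-19a-3p: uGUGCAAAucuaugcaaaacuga
miR-19b-3p: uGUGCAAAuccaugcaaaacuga
miR-92a-3p: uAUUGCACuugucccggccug
Here miR-15a and miR-16 shared the seed AGCAGCA, miR-17 and miR-20a shared AAAGUGC, and miR-19a and miR-19b shared GUGCAAA. The remaining blood cell strands printed here each had a seed of their own.
miR-146a-5p: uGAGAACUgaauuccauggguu
miR-223-3p: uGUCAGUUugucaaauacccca
miR-142a-5p: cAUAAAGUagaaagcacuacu
miR-142a-3p: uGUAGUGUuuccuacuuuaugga

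Of the libraries as a whole, Stat5a, a STAT5 gene, stood at 105 and 123 FPKM in vcS5 libraries and 13.9 and 17.0 FPKM in wt libraries (limma log2 change 2.81 ± 0.17 SE, adjusted p = 0.00241). By limma's adjusted p of 0.05, 4 of 9 T cell marker rows and 5 of 6 CD8 T cell marker rows passed, higher in vcS5, and all 10 B cell marker rows passed, lower. All 9 T cell and all 6 CD8 T cell rows had both vcS5 values above both wt values and a q-value under 0.05 in the authors' deposited table. The median FPKM over all rows lay between 12.2 and 12.6 in the 4 libraries, and between 71.8 and 77.7 over the 74 members.

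Of the 74 members, 14 passed limma's adjusted p of 0.05 (18.9%), 8 higher and 6 lower in vcS5. Over all 14226 rows 8.72% passed, 4.59% higher and 4.13% lower. By class, 3 snoRNA rows were higher and 3 lower of 47, and 5 microRNA rows were higher and 3 lower of 27. The median log2 change of the members was 0.09, against 0.00 over all rows. Of the 14 calls, 7 were rows listed at exactly 0 in both libraries of a group. Among the 67 members not listed at 0, 7 passed (10.4%), 3 higher and 4 lower. At an unadjusted p under 0.05 there were 26 members and 3595 rows of the table. In 41 members the vcS5 and wt values did not overlap, 21 higher and 20 lower, while 54.4% of all rows did not overlap, 26.9% higher and 27.5% lower.

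The members varied more between libraries of a group than other rows did. The median absolute log2 difference between the replicates was 0.45 over members in vcS5 and 0.53 in wt. Over all rows it was 0.21 in vcS5 and 0.20 in wt. In the authors' deposited table, 2 members had a q-value under 0.05, 1 higher and 1 lower, and neither was among the 14. Over all rows 11.5% had such a q-value, 5.31% higher and 6.14% lower in vcS5. The 14 had q-values between 0.279 and 0.935 there. The authors' 2 members are described with the longer transcripts below.

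**Figure D1:**
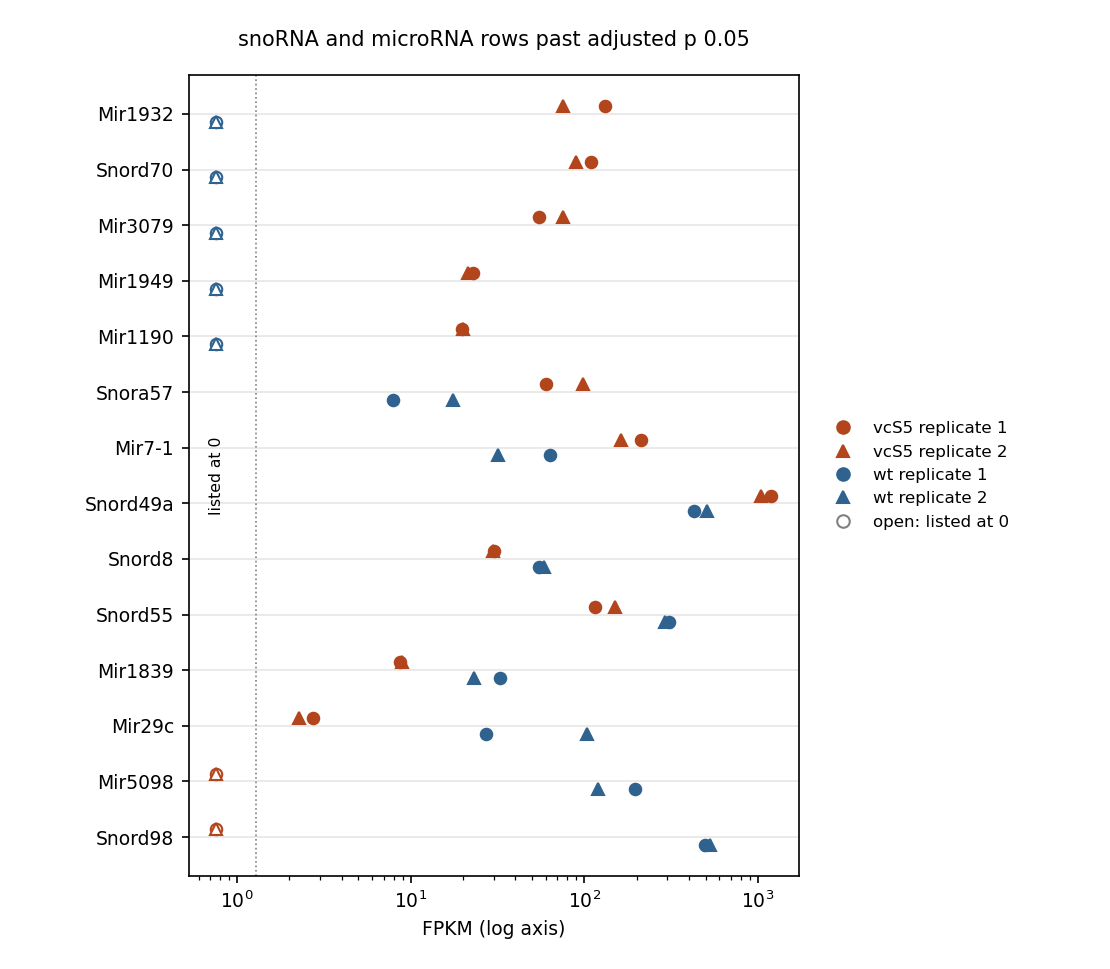
FPKM (log axis) of the 14 members past limma's adjusted p of 0.05 in the 2 vcS5 and 2 wt libraries, 1 symbol per library, with open symbols for values listed at 0. In 7 of the 14 rows a whole group is listed at 0.

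Of the members, 5 were listed at 0 in both wt libraries and above 0 in both vcS5 libraries. Snord70, a box C/D snoRNA in an intron of Nop58, stood at 109 and 89.3 FPKM in vcS5 libraries and was listed at 0 in wt libraries. Its host Nop58, a core box C/D protein, had 59.8 and 68.6 FPKM in vcS5 and 46.4 and 50.2 FPKM in wt (log2 change 0.40, limma adjusted p = 0.17). So the host row was present in all 4 libraries while the snoRNA row was listed in vcS5 only. Gm26293, a short RNA row within the same locus, had 223 and 107 FPKM in vcS5 and was listed at 0 in wt. Gm26287, another short row there, had 279.9 and 130.1 FPKM in vcS5 and 126 and 255 FPKM in wt, with overlapping groups.

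The other 4 rows listed at 0 in wt were named for microRNAs. Mir1932 stood at 131 and 75.7 FPKM in vcS5 libraries, and its locus overlaps Rnf213, which had 53.1 and 60.8 FPKM in vcS5 and 65.6 and 66.1 FPKM in wt. Mir3079, which lies opposite Spatc1, stood at 54.8 and 75.3 FPKM in vcS5. Mir1949 stood at 22.9 and 21.5 FPKM in vcS5, and the annotation types the gene of that row as a snoRNA. Mir1190, inside Ccdc88c, stood at 19.7 and 19.98 FPKM in vcS5, while Ccdc88c had 43.4 and 58.4 FPKM in vcS5 and 34.9 and 47.2 FPKM in wt. Limma's adjusted p of the 5 rows ran from 0.000201 to 0.000769, and no fold is given because wt was listed at 0.

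Listed at 0 in both vcS5 libraries were 2 members. Snord98, a box C/D snoRNA in Ccar1, was listed at 0 in vcS5 and stood at 497 and 531 FPKM in wt (limma adjusted p = 3.43e-05). Ccar1 itself had 33.0 and 33.4 FPKM in vcS5 and 31.8 and 35.5 FPKM in wt. Mir5098 was listed at 0 in vcS5 and stood at 196 and 119 FPKM in wt (limma adjusted p = 0.000373). Its host Rest, a transcriptional repressor of neuronal genes, had 9.44 and 8.69 FPKM in vcS5 and 13.003 and 14.3 FPKM in wt (log2 change -0.54, adjusted p = 0.0875). Neither host passed limma's threshold. The authors' deposited table gives Rest a q-value of 0.0134 and Ccar1 one of 0.988.

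Zeros came in groups throughout the table. It listed 33 rows at 0 in both vcS5 libraries and 54 in both wt libraries, and 0 rows at 0 in only 1 library of either group. A 0 in 1 library of a group thus always came with a 0 in the other. What step of the authors' processing made this so was not tested.

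The values of short members move in steps, which show how few reads they rest on. Cufflinks divides a row's reads by an effective length, the number of places a fragment of assumed size can start. With a fragment length of 200 ± 80 bases and a least length of 49, FPKM times effective length came out a whole multiple of 1 constant per library in the replicate 2 libraries. This count took members of up to 250 bases that stood above 0.5 and below 30 reads in the library, and left out the others. Within 0.02 of a read, 48 of 55 such members (87.3%) were whole in vcS5 replicate 2, and 46 of 53 (86.8%) in wt replicate 2. Evenly spread values would give 4%. In the replicate 1 libraries 1 of 45 members was whole in vcS5 and 3 of 42 in wt, so no reads are given for them, and why they lie off the steps was not tested. The constant is fixed only up to a whole divisor, and the largest that fitted was used. A smaller one would multiply every read number by a whole factor.

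On this scale 50 members could be read in both replicate 2 libraries, 24 Snord, 16 Snora and 10 microRNA rows of 64 to 238 bases. In vcS5 replicate 2, 1 read was worth 613 FPKM at 64 bases, 261 FPKM at 72, 89.3 FPKM at 87, 8.9 FPKM at 148 and 1.62 FPKM at 238. The 50 rows together held 262 reads in vcS5 replicate 2 (exact Poisson 95% interval 231 to 296) and 248 in wt replicate 2 (218 to 281), with a median of 4 reads in vcS5 replicate 2 and 3 in wt replicate 2. These intervals cover counting error only. The totals lie within each other's intervals. Reads were more numerous in vcS5 replicate 2 in 23 members, less numerous in 22 and equal in 5. Summed by class in those libraries, Snord rows held 107 reads in vcS5 and 117 in wt, Snora rows 134 in vcS5 and 114 in wt, and microRNA rows 21 in vcS5 and 17 in wt.

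**Figure D2:**
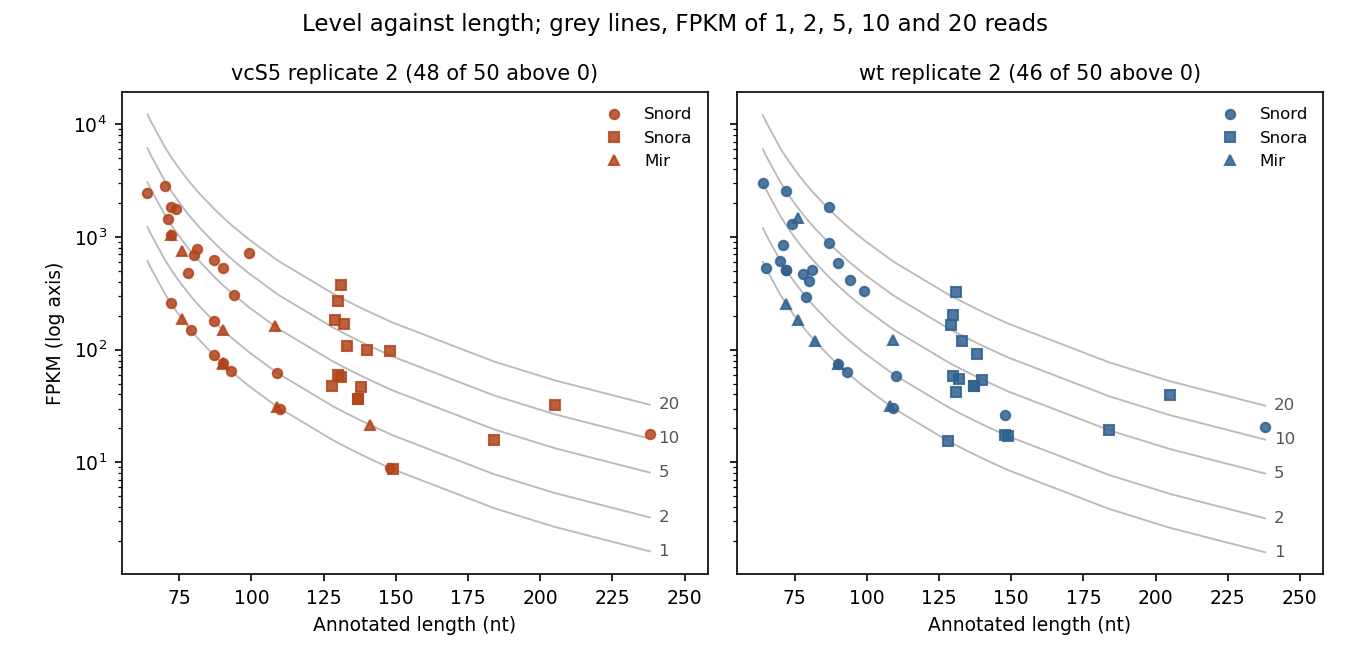
FPKM (log axis) against annotated length in bases for the 50 short members in vcS5 replicate 2 (left, 48 above 0) and wt replicate 2 (right, 46 above 0), with grey lines for 1, 2, 5, 10 and 20 reads. The highest FPKM values belong to the shortest genes, and a point on a line holds that number of reads.

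Most calls rest on a few reads. Of the 11 members past the threshold that could be read, 10 had 5 or fewer reads in both replicate 2 libraries and 8 had 2 or fewer. Snord98, with 0 reads in vcS5 replicate 2 and 1 read in wt replicate 2, had the lowest adjusted p of all members. The exact Poisson 95% interval of 1 read runs from 0.0253 to 5.57, and 0 reads allow up to 3.69. Snord70, Mir1932 and Mir3079 had 1 read in vcS5 replicate 2 and 0 in wt replicate 2, Mir1949 had 2 in vcS5 and 0 in wt, and Mir5098 had 0 in vcS5 and 1 in wt. Mir1190, off the steps at its annotated 96 bases, stood in vcS5 replicate 2 at 19.98 FPKM, the worth of 1 read at 121 bases. These differences were not detectable at that depth in the replicate 2 libraries alone. A pseudocount of 1 read for short rows was an alternative added after the data were seen. With it 9 of the 14 passed, and Snord98, Mir3079, Mir5098, Snord55 and Snord8 did not. Mir1190, Mir29c and Mir1839, which lay off the read steps, kept their values of the main fit, so this alternative did not test them.

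Since 0 rows were at 0 in only 1 library of a group, replicate 1 could not be at 0 where replicate 2 had 1 read. That held for 12 of 12 members in vcS5 and 10 of 10 in wt, and over the table for all 47 such short rows in vcS5 and all 40 in wt. The lowest value above 0 among short members in replicate 1 was 0.728 of a replicate 2 read's worth in vcS5 and 0.76 in wt. No group in the deposited rows thus pairs a library at 0 with a library above 0. Replicate 1 has no read scale here, so its variation in reads is not known. limma's estimate of spread for these rows draws on the deposited pairs (2 residual degrees of freedom) and on the trend over all rows (3.17 prior degrees of freedom). Among short RNA rows that are not members, 35 of 126 passed (27.8%), 31 of them listed at 0 in a group. Among the short members 11 of 50 passed (22%), 6 of them listed at 0. The share over all rows was 8.72%.

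**Figure D3:**
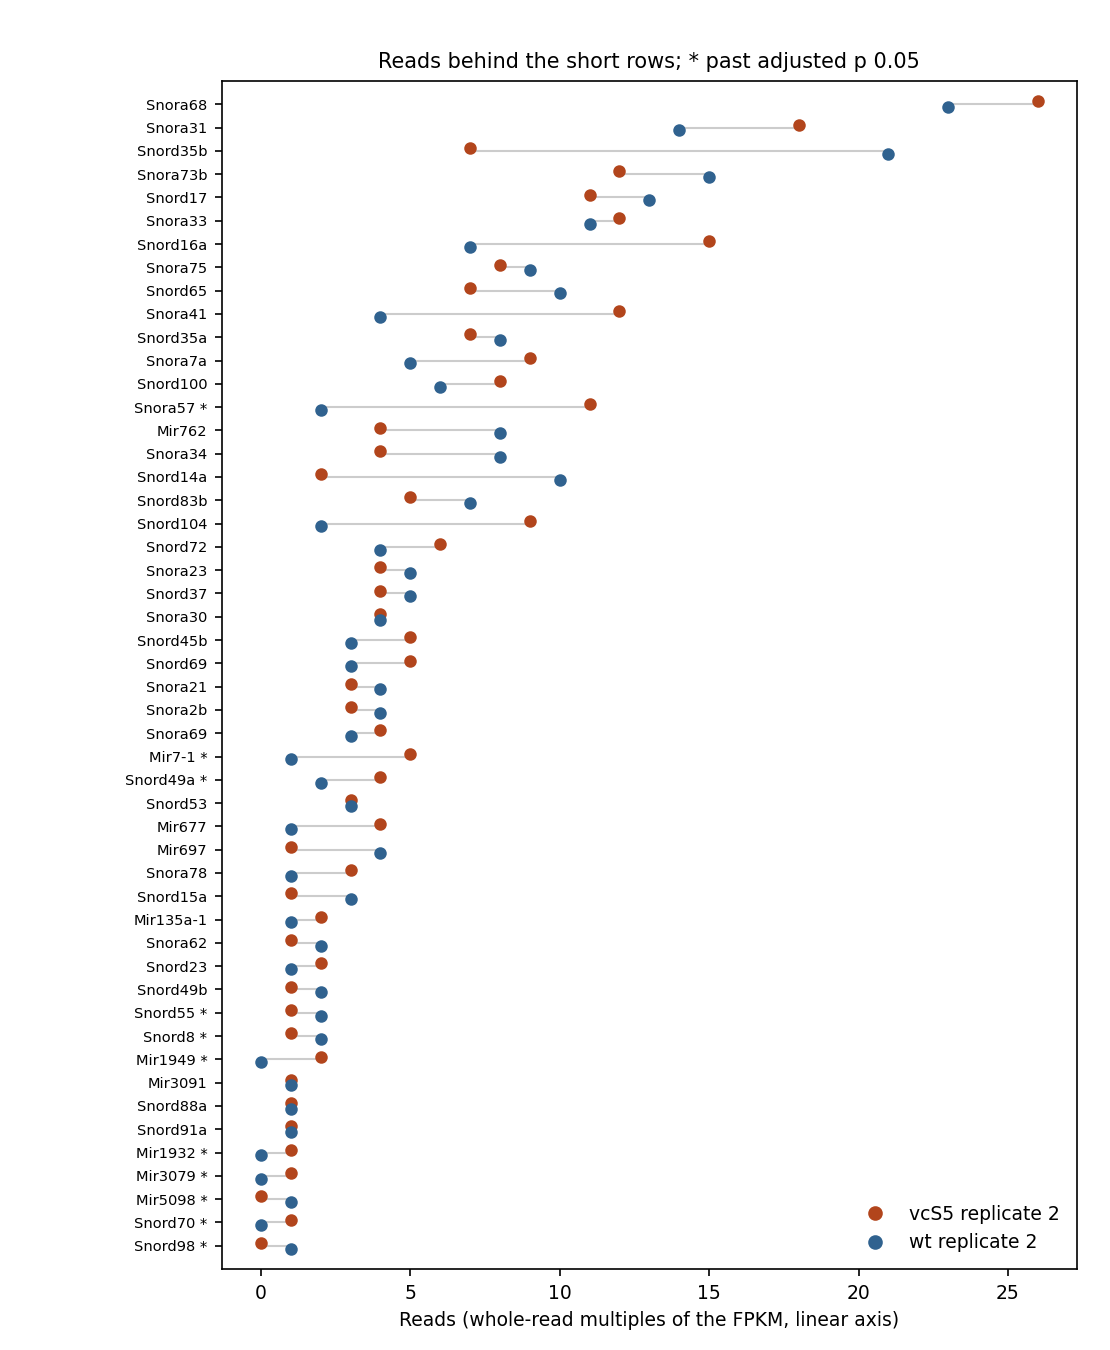
Reads per member (linear axis) in vcS5 replicate 2 and wt replicate 2 for the 50 short members, ordered by their sum, with * marking those past limma's adjusted p of 0.05. Of the 11 marked rows, 8 sit at 2 reads or fewer in both libraries.

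Snora57 was the called member with most reads. This box H/ACA RNA stood at 60.1 and 97.9 FPKM in vcS5 libraries and at 7.90 and 17.5 FPKM in wt libraries, with no overlap (log2 change 2.60 ± 0.41 SE, limma adjusted p = 0.0267). It held 11 reads in vcS5 replicate 2 and 2 in wt replicate 2. Its row covers the snoRNA alone, and the gene sharing its place, Lbhd1, lies on the opposite strand. It passed without wt replicate 2 (adjusted p = 0.045) but had 0.0866 without wt replicate 1, and 0.0943 and 0.152 with vcS5 replicates 1 and 2 left out in turn. Over all limma alternatives its adjusted p ran from 0.0198 to 0.152.

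Mir7-1, the gene of the miR-7 precursor in an intron of Hnrnpk, stood at 213 and 162 FPKM in vcS5 and at 63.3 and 31.8 FPKM in wt (log2 change 2.02 ± 0.35 SE, limma adjusted p = 0.0328), with 5 reads in vcS5 replicate 2 and 1 in wt replicate 2. Hnrnpk, which encodes an RNA-binding protein, had 542 and 558 FPKM in vcS5 and 596 and 639 FPKM in wt (log2 change -0.17), so the row and its host lay on opposite sides of 0. Both vcS5 values of Mir7-1 were above both wt values. Its adjusted p was 0.0825 without wt replicate 2, and 0.158 and 0.145 with vcS5 replicates 1 and 2 left out in turn, in a range of 0.0304 to 0.158 over all limma alternatives.

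Of the 3 snoRNAs of 2410006H16Rik, whose sequences are given above, Snord49a alone passed. It stood at 1198 and 1044 FPKM in vcS5 and at 429 and 512 FPKM in wt (log2 change 1.25 ± 0.20 SE, limma adjusted p = 0.0271), with 4 reads in vcS5 replicate 2 and 2 in wt replicate 2. Snord49b stood at 822 and 261 FPKM in vcS5 and at 732 and 512 FPKM in wt, and Snord65 at 1061 and 1827 FPKM in vcS5 and at 711 and 2561 FPKM in wt. In both the groups overlapped, and the difference between the 3 was not tested. With any 1 library left out Snord49a had adjusted p-values of 0.101 to 0.147, and over all limma alternatives 0.0239 to 0.147. The host had 118 and 132 FPKM in vcS5 and 130.4 and 159 FPKM in wt (log2 change -0.21).

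Snord55 and Snord8 were lower in vcS5. Snord55, a box C/D snoRNA, stood at 115 and 149.5 FPKM in vcS5 and at 309 and 293 FPKM in wt (log2 change -1.19 ± 0.18 SE, limma adjusted p = 0.0248). Snord8, in the chromatin remodeller gene Chd8, stood at 30.1 and 29.9 FPKM in vcS5 and at 54.96 and 58.7 FPKM in wt (log2 change -0.90 ± 0.13 SE, adjusted p = 0.0215). Each held 1 read in vcS5 replicate 2 and 2 reads in wt replicate 2. With any 1 library left out, or with a pseudocount of 1 read in place of 1 FPKM, neither passed. Over all limma alternatives the adjusted p ran from 0.0164 to 0.125 for Snord55 and from 0.0184 to 0.163 for Snord8. Chd8 itself had a log2 change of -0.03 and did not pass.

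The members with the highest FPKM were mostly short genes. By mean FPKM the first 10 were Snord37, Snord100, Snord65, Snord104, Mir762, Snord35b, Mir1896, Mir677, Snord45b and Snord49a. Their means lay between 796 and 2691 FPKM. Of these, 9 were short rows of at most 87 bases, and Mir1896 was a row of several genes. Only Snord49a of the 10 passed. Over the 50 short members, annotated length and mean FPKM had a Spearman rho of -0.79, a description over genes of 4 shared libraries. FPKM order among such rows went with length, as the plot of level against length shows.

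In terms of reads the order was another. Snora68, an H/ACA RNA, held most, with 26 reads in vcS5 replicate 2 and 23 in wt replicate 2, at 217 and 375 FPKM in vcS5 and 268 and 326 FPKM in wt. Snord37, in the elongation factor gene Eef2, led by FPKM with 1748 and 2454 in vcS5 and 3555 and 3009 in wt, and held 4 reads in vcS5 replicate 2 and 5 in wt replicate 2. Snord104 stood at 1716 and 2830 FPKM in vcS5 and at 931 and 617 FPKM in wt (log2 change 1.54 ± 0.35 SE, limma adjusted p = 0.0621), with 9 reads in vcS5 replicate 2 and 2 in wt replicate 2. Snord104 and Snora41, in Eef1b2, did not pass although their groups did not overlap. Snora41 had 140.1 and 168 FPKM in vcS5 and 83.8 and 54.9 FPKM in wt (log2 change 1.16, adjusted p = 0.0503; 12 reads in vcS5 replicate 2 and 4 in wt replicate 2).

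Beyond the short rows, 16 members named for a single gene lay off the read steps, and could not be given in whole reads at their annotated length. Of 15 with an annotated length of up to 250 bases, 11 stood above 0 but below the worth of 1 read at that length in a replicate 2 library. A further 8 rows list several genes, such as Mir18 with Mir17, Mir19a, Mir20a, Mir19b-1, Mir92-1 and the host Mir17hg. Of the 16, 3 passed (18.8%, 1 higher and 2 lower), against 8.72% of all rows. The 1 higher, Mir1190, was listed at 0 in both wt libraries. Of the 8 none passed, with 1 at an unadjusted p under 0.05 and 1 by the authors' q-value.

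Mir29c, a microRNA of the tumour suppressor miR-29 family, was lower in vcS5, at 2.74 and 2.28 FPKM in vcS5 libraries and at 27.3 and 104 FPKM in wt libraries (log2 change -3.96 ± 0.61 SE, limma adjusted p = 0.0245). The wt libraries differed from each other, and both lay above both vcS5 libraries. The row spans chr1:195037505-195038386, 882 bases around the precursor of 88, and its 2.28 FPKM in vcS5 replicate 2 lies below the 84.3 FPKM that 1 read would be worth at 88 bases. Its adjusted p was 0.125 and 0.153 with vcS5 replicates 1 and 2 left out in turn and 0.0516 with the replicate number as a block, in a range of 0.00809 to 0.153 over all limma alternatives.

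Mir1839 was lower in vcS5 too, at 8.64 and 8.96 FPKM in vcS5 and at 32.8 and 23.1 FPKM in wt (log2 change -1.54 ± 0.20 SE, limma adjusted p = 0.0168). The annotation types the gene of this row as a small Cajal body RNA of 127 bases, a class that guides modification of spliceosomal RNA. Its adjusted p was 0.0741 without wt replicate 1, and 0.103 and 0.125 with vcS5 replicates 1 and 2 left out in turn, in a range of 0.0143 to 0.125 over all limma alternatives. Of the 27 microRNA-named rows, 23 were typed as microRNA and 3 as another small RNA class, and Mir142hg as a long noncoding RNA.

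Of the list of microRNAs known in lymphocytes and other blood cells, 7 rows were measured. Of these 1 passed (Mir29c, lower), against 8.72% of all rows. The median log2 change was -0.49, with 4 at an unadjusted p under 0.05 (3595 of 14226 over all rows) and 0 by the authors' q-value. Mir146, the gene of miR-146a, which restrains NF-kappaB signalling, stood at 1.75 and 1.55 FPKM in vcS5 and at 3.57 and 3.46 FPKM in wt (log2 change -0.77 ± 0.18 SE, limma adjusted p = 0.0639). Mir223, the myeloid microRNA gene, stood at 1.58 and 1.67 FPKM in vcS5 and at 4.11 and 2.94 FPKM in wt (log2 change -0.77 ± 0.21 SE, adjusted p = 0.0941). In both rows the groups did not overlap, and neither passed. Without the variance trend Mir146 did (adjusted p = 0.0442, in a range of 0.0442 to 0.222 over all limma alternatives). Beside Mir223, the summed FPKM of 10 neutrophil markers was 1025 and 992 in vcS5 and 6359 and 1913 in wt, with none at 0. Their median log2 change was -1.74. Of the 10, limma called 1 (lower), and 7 had an unadjusted p under 0.05. By the authors' q-value under 0.05 the count was 9 of 10, against 11.5% of all rows. The part of these markers in the Mir223 values was not tested.

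Mir142hg, the host of the pan-leukocyte miR-142, stood at 75.6 and 77.7 FPKM in vcS5 and at 93.5 and 119.8 FPKM in wt (log2 change -0.46, limma adjusted p = 0.179). Mir16-1, in a row with Mir15a, stood at 7.96 and 6.05 FPKM in vcS5 and at 11.6 and 8.88 FPKM in wt (log2 change -0.49, adjusted p = 0.223). Both vcS5 values were below both wt values in these 2 rows, without passing the threshold. Mir18, the row of the proliferation-linked miR-17 to miR-92 cluster, stood at 7.36 and 14.02 FPKM in vcS5 and at 7.48 and 5.70 FPKM in wt (log2 change 0.57, adjusted p = 0.338). Mir150, known from mature lymphocytes, stood at 29.7 and 24.5 FPKM in vcS5 and at 22.5 and 28.9 FPKM in wt (log2 change 0.08, adjusted p = 0.852). In these last 2 rows the groups overlapped. Beside this list, the summed FPKM of the 10 B cell marker rows was 1382 and 1338 in vcS5 and 3293 and 4001 in wt, with none at 0, and that of the 9 T cell markers 2199 and 2946 in vcS5 and 807 and 1100.2 in wt. Their part in these rows was not tested.

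**Figure D4:**
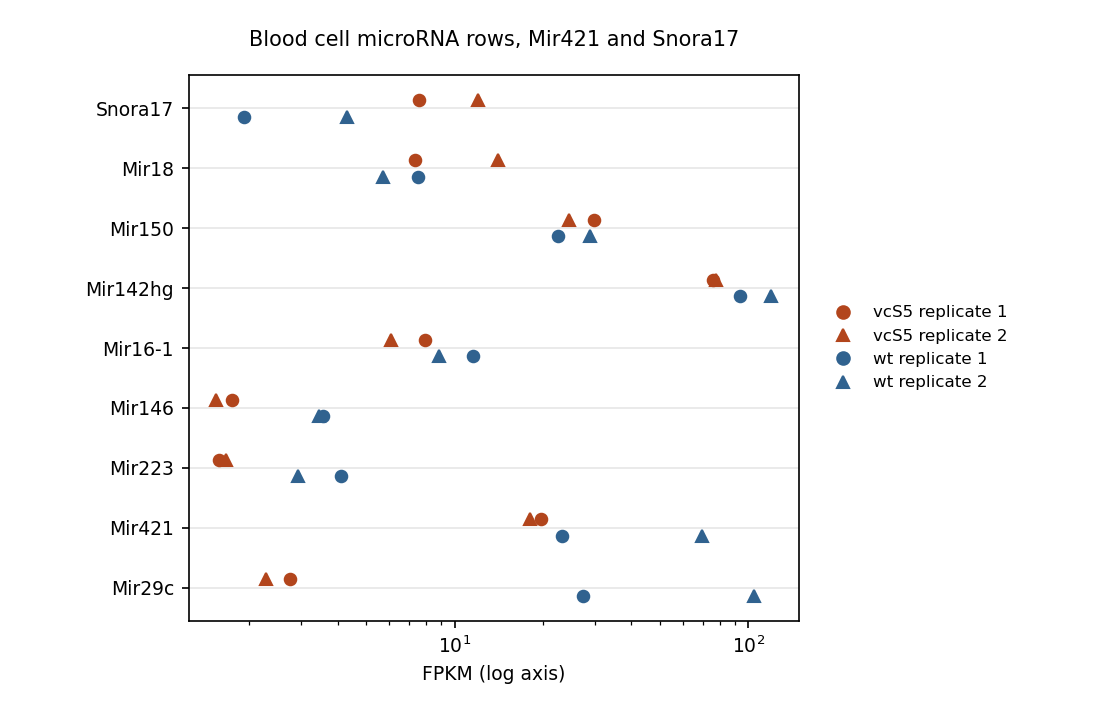
FPKM (log axis) of the 7 blood cell microRNA rows, Mir421 and Snora17 in the 2 vcS5 and 2 wt libraries, 1 symbol per library, ordered by log2 change. Mir29c, Mir421, Mir223, Mir146, Mir16-1 and Mir142hg have both vcS5 values below both wt values, and Snora17 has both above.

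Both members with a q-value under 0.05 in the authors' deposited table are such longer rows, and are named here after their values were seen. Mir421, in a row with Mir374b and Ftx, a noncoding gene of the X inactivation centre, stood at 19.7 and 18.01 FPKM in vcS5 and at 23.2 and 69.7 FPKM in wt (log2 change -1.06 ± 0.50 SE, limma adjusted p = 0.268). It passed without wt replicate 1 (log2 change -1.83, adjusted p = 0.0468). The authors' deposited table gives it a log2 fold change of -1.30 and a q-value of 0.00185. Snora17 stood at 7.56 and 12.02 FPKM in vcS5 and at 1.92 and 4.32 FPKM in wt (log2 change 1.42 ± 0.36 SE, limma adjusted p = 0.0797). With the replicate number as a block it passed (adjusted p = 0.0342). The authors' deposited table gives it 1.65 and a q-value of 0.00404. In Mir421 the wt replicate 1 value lay close to the vcS5 values and wt replicate 2 far above them.

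Host genes were compared with their members, since a snoRNA and its host come from the same primary transcript. Of the 74 members, 57 share a deposited locus with another row, and 47 lie on the same strand in a host with a row of its own, 42 of these members in protein-coding hosts. The 47 members have 43 distinct host rows. Of these 2 passed by limma (4.65%, against 8.72% of all rows), both higher, and 0 were lower, with 33 above 0 and a median log2 change of 0.40. By the authors' q-value under 0.05 the count was 10 of 43 host rows, 9 higher and 1 lower in vcS5. Neither limma call was among them, and 11.5% of all rows had such a q-value. So whether host rows passed less or more often than all rows depended on the test used. Snhg9, the noncoding host of Snora78, was at 3.86 and 4.01 FPKM in vcS5 and listed at 0 in wt. Snora78 stood at 95.8 and 47.6 FPKM in vcS5 and at 43.7 and 15.6 FPKM in wt (log2 change 1.33, limma adjusted p = 0.22, and 0.0356 with the replicate number as a block). Snora78 held 3 reads in vcS5 replicate 2 and 1 read in wt replicate 2. So the snoRNA was above 0 in wt, on 1 read in replicate 2, where its host was listed at 0.

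Rabggtb, which encodes a subunit of the Rab geranylgeranyl transferase and hosts Snord45b, stood at 367 and 156 FPKM in vcS5 and at 33.4 and 32.2 FPKM in wt (log2 change 2.83 ± 0.40 SE, limma adjusted p = 0.0211). Snord45b stood at 558 and 1429.9 FPKM in vcS5 and at 746 and 842 FPKM in wt (log2 change 0.17, adjusted p = 0.866). The 2 groups did not overlap in the host and overlapped in the snoRNA, and the difference between host and snoRNA was not tested. The authors' deposited table gives Rabggtb a q-value of 0.547.

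The 15 ribosomal protein hosts all had log2 changes above 0, from 0.31 to 0.72 with a median of 0.53, and 0 of the 15 passed. Of the 15, 7 (46.7%, against 11.5% of all rows) had a q-value under 0.05 in the authors' deposited table, all 7 higher in vcS5. Their 16 snoRNA and microRNA members ranged from -1.23 to 0.88 with a median of 0.11, 9 above 0 and 7 below, and 1 passed, lower. Over the 43 pairs whose member was not listed at 0, the log2 changes of member and host had a Pearson r of 0.12 and a Spearman rho of 0.16, and 27 had the same sign. This is a description over pairs measured in the same 4 libraries, and some pairs share a host.

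**Figure D5:**
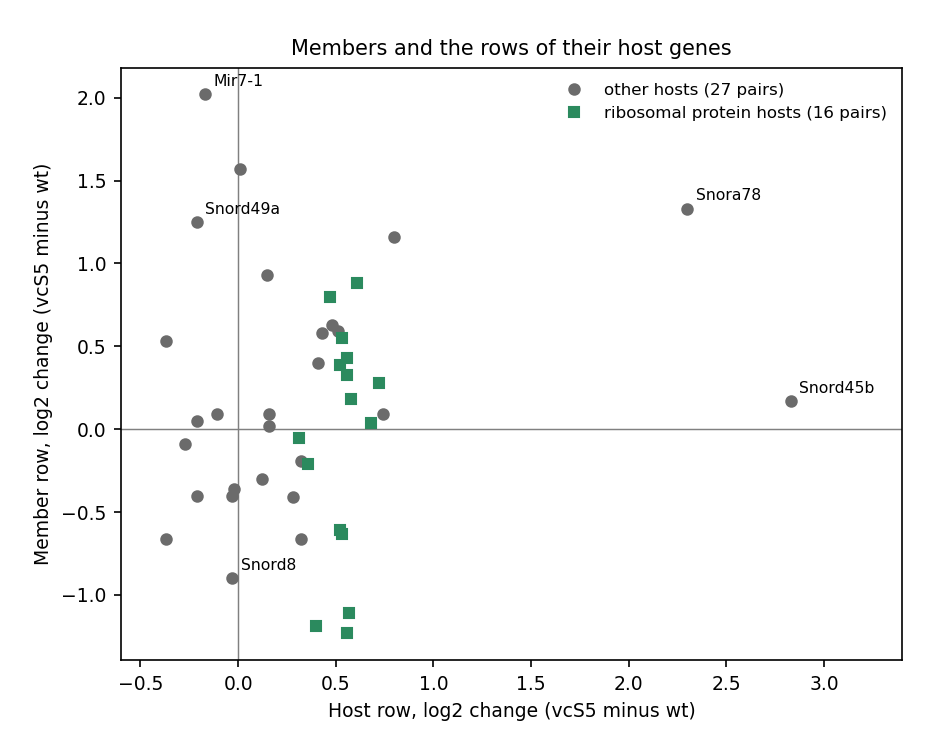
log2 change (vcS5 minus wt) of each member against that of its host row for the 43 pairs whose member was not listed at 0, with ribosomal protein hosts as squares and pairs with a call among the other hosts named. The 16 ribosomal protein pairs lie between 0.31 and 0.72 on the host axis and between -1.23 and 0.88 on the member axis.

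The proteins that carry and make these RNAs were read from lists. For comparison, 8.72% of all rows passed limma's adjusted p of 0.05, and 3595 of 14226 had an unadjusted p under 0.05. By the authors' q-value the share was 11.5%. Of box C/D core and assembly proteins, 13 were measured and 0 passed, with a median log2 change of 0.08, 2 at an unadjusted p under 0.05 and 0 by the authors' q-value. Fibrillarin, the methyltransferase (Fbl), stood at 51.3 and 59.5 FPKM in vcS5 and at 38.0 and 44.3 FPKM in wt (log2 change 0.42, limma adjusted p = 0.182). Of H/ACA proteins, 6 were measured and 0 passed, with a median of 0.41, 2 at an unadjusted p under 0.05 and 0 by the authors' q-value. Dyskerin (Dkc1), the pseudouridine synthase, stood at 128.5 and 136 FPKM in vcS5 and at 85.8 and 87.0 FPKM in wt (log2 change 0.61 ± 0.13 SE, adjusted p = 0.0577). Nhp2, its partner, stood at 49.7 and 58.4 FPKM in vcS5 and at 38.0 and 34.1 FPKM in wt (log2 change 0.57, adjusted p = 0.0908). Neither passed, although the groups of both did not overlap.

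Of the microRNA processing and effector genes, 20 rows were measured and 0 passed, against 8.72% of all rows. Their median log2 change was -0.12. At an unadjusted p under 0.05 there were 2, against 3595 of 14226 rows, and 0 by the authors' q-value. Ago4, an Argonaute, stood at 1.51 and 2.06 FPKM in vcS5 and at 3.38 and 3.64 FPKM in wt (log2 change -0.70, limma adjusted p = 0.0998). Dicer1, the ribonuclease that cuts precursors, stood at 13.9 and 13.3 FPKM in vcS5 and at 16.1 and 15.1 FPKM in wt (log2 change -0.19, adjusted p = 0.45). Ran and Xpo5, which export precursors from the nucleus, had log2 changes of 0.56 and 0.34 with adjusted p-values of 0.127 and 0.206. Another row of Xpo5 stood at 4.74 and 13.02 FPKM in vcS5 and at 5.71 and 12.5 FPKM in wt. Its log2 change was -0.09 (limma adjusted p = 0.944). Of a list of 20 mostly noncoding snoRNA hosts, 4 had a row under their own symbol: Snhg9, Snhg20, Rnf157 and Gas5. Snhg9 alone of the 4 passed, higher, against 8.72% of all rows. The median log2 change of the 4 was 0.55, with Rnf157 at -0.61. Snhg12 and Snhg15, merged into the rows of Snora44 and Snora9, were not counted. Nor was 2410006H16Rik, which the list does not hold. Gas5, which hosts many box C/D snoRNAs, stood at 1286 and 3818 FPKM in vcS5 and at 1374 and 1977 FPKM in wt (log2 change 0.43, adjusted p = 0.706), with overlapping groups.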

How the data were processed

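RNA-seq was run on spleen cells of 2 vcS5 and 2 wt mice. The FPKM values, p-values, q-values and log2 fold changes are as deposited by the authors, who used TopHat2 2.0.9, Bowtie2 2.1.0, Cufflinks and Cuffdiff 2.1.1 on mm10, per the submitters' processing notes. The table held 14226 rows, all with a mean FPKM of at least 1, and its total counts are not given in the sources used here. Steps in the FPKM of short rows give a scaling total of 12674761 for vcS5 replicate 2 and 12918595 for wt replicate 2.

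Rows were fitted with limma 3.58.1 (R 4.3.3) on log2(FPKM + 1), with a variance trend, over all rows and 4 libraries, and p-values were adjusted by Benjamini-Hochberg at 0.05. A fold change on this scale understates the change of low rows. FPKM is not counts, so no count model was used. With 2 against 2 libraries an exact permutation test of 1 value cannot go below 0.333. Members and lists were chosen with earlier results of these data known. Members named are those past the threshold, at 0 in a group, in the top 10 by mean or in the blood cell list, with rows at their loci; others are given for their reads. The effective length behind the read steps (least length 49 among several tried) was chosen by eye on 5 member values of vcS5 replicate 2. The constants were then fitted on other short rows, with the tolerance of that search widened once wt replicate 2 had come out at a smaller divisor. Overlapping loci were read without strand in the reads, so reads of a member and an overlapping transcript cannot be told apart. Scripts were tested on simulated data. Sequences come from GENCODE vM21 and RefSeq. No sequence is printed for Mir150, Mir1949, Mir3079 and Snord55. Alternatives tried are other pseudocounts, filters, scalings, a replicate block and leaving out each library.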

Additional observations from a re-analysis of the deposited data

How the results depend on the processing

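The 14 member calls stayed at 14 with pseudocounts of 0.1, 0.5 and 5, with a mean FPKM of at least 5, and with quantile or median scaling, and came to 15 without the variance trend (Mir146 added). Leaving out rows listed at 0 gave 7 members (microRNA rows 3 of 8 calls), and the authors' q-value gave 2 (snoRNA rows 1, microRNA rows 1). A pseudocount of 1 read for short rows, added after the data were seen, gave 9 (snoRNA rows 3). It left rows off the read steps, among them Mir1190, Mir29c and Mir1839, at their values of the main fit. Leaving out 1 library at a time gave 7 to 11 members (10 without wt replicate 1, 11 without wt replicate 2, 7 without either vcS5 library), 2 to 3 snoRNA rows, 5 to 8 microRNA rows and, over the whole table, 71 to 245 rows against 1241 with all libraries. A group left with 1 library is assumed to vary like the other. Mir1949, Mir1932, Mir1190 and Snord70 passed in all 13 limma fits of all rows, and each is listed at 0 in wt. Host rows gave 1 call in place of 2 with a mean FPKM of at least 5, with rows listed at 0 left out and in each leave-one-out fit (1 to 1), and 10 by the authors' q-value. The pathway lists gave 0 in place of 1 with the mean filter, with rows at 0 left out and by the authors' q-value, 2 with quantile scaling, and 0 to 1 with a library left out.

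The replicate numbers were not taken as pairing, since only 2 pairs exist: deviations of same-numbered libraries had a correlation of 0.176 over all rows and 0.25 over members. With the replicate block 15 members passed, 13 of them among the 14 (Snora17 and Snora78 added, Mir29c lost), and the pathway lists gave 2. Among the members followed singly across settings, signs turned in 7, none of them called. The other members were not followed in this way, so their signs may turn too. With a library left out the log2 change ran from -0.10 to 0.25 in Mir150, from -0.19 to 2.06 in Mir677, from -0.92 to 0.08 in Mir762, from -0.51 to 0.85 in Snord45b, from -0.88 to 0.97 in Snord65, from -0.44 to 0.34 in Snora68 and from -1.23 to 0.42 in Snord49b. With quantile scaling Snord45b had -0.08 and Snord65 -0.19, and the authors' deposited table gives Snord65 -0.18. The cause was not tested. All 57 members sharing a locus also lay wholly within the other row. A member and its host row have the same deposited locus, so this stricter rule could not leave such members out. Depth limits the short rows to differences of several reads.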
